A study of Mus musculus with 4 samples.

Results

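The collagen genes measured here are the 44 genes whose only symbol in the array's probe annotation has the form Col, a number, a, a number, out of 19938 genes with such a symbol. Where a gene had several probe sets, the one with the highest mean over the arrays was taken. By class the 44 genes comprised 11 fibrillar collagens, 8 basement membrane collagens and 25 others, and 27 of them (9 fibrillar, 5 basement membrane and 13 other) had a mean of at least 7.11 on the log2 scale, the median over all probe sets, and entered the tests. The study measured RNA of C57BL/6J mouse fetuses at embryonic day 18 on 4 Affymetrix expression arrays, which were hippocampus after maternal ethanol, hippocampus after maternal PBS, forebrain after maternal ethanol and forebrain after maternal PBS. The dams had been given ethanol (2.9 g/kg/day, as a 15% v/v solution) or phosphate-buffered saline into the stomach on 5 days, embryonic days 8 to 12. The mice carried no engineered allele that the labels name, and how many fetuses or litters gave each RNA is not stated. Each group had 1 array, so no comparison within a tissue has a replicate check.

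Collagens are extracellular proteins in which 3 chains wind around each other, each chain a long repeat with glycine at regular positions. Fibrillar collagens build the tension-bearing fibres of connective tissue and, in the fetal brain, of the meninges, while type IV networks underlie blood vessels and the pial surface. The remaining types sit on fibrils, form fine filaments, or span the cell membrane. A chain is made as a precursor, hydroxylated and folded in the endoplasmic reticulum, trimmed outside the cell and cross-linked into the matrix.

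Values are the deposited log2 expression values, and a difference of 1 on that scale is a 2-fold difference. The level of one probe set was not set against that of another, because probe sets differ in how brightly they hybridise. The arrays had close medians over all probe sets, 7.11 and 7.13 in hippocampus after ethanol and PBS and 7.11 and 7.11 in forebrain after ethanol and PBS. Over the 11013 genes kept, the lowest array median was that of hippocampus after ethanol, 8.57, against 8.67 in hippocampus after PBS, 8.66 in forebrain after ethanol and 8.68 in forebrain after PBS. The label of hippocampus was checked on 6 genes of hippocampal fields (Zbtb20, Prox1, Lef1, Nr3c2, Grik4 and Wfs1), of which 2 were higher in hippocampus than in forebrain after ethanol and 3 after PBS. Zbtb20, a transcription factor of hippocampal pyramidal neurons, was higher in hippocampus by 0.23 after ethanol and by 0.35 after PBS, while Prox1, a marker of dentate granule cells, differed by -0.33 and -0.16. These 6 genes were chosen with other values of these data known, and they did not, as a group, set the arrays labelled hippocampus apart from those labelled forebrain.

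The first question the design allows is how the tissues differed. Type I collagen was lower in hippocampus than in forebrain in both treatments, and its chains Col1a1 and Col1a2 were the collagens called by the test over all genes. Col1a1, which encodes the alpha 1 chain of the main fibril-forming collagen, read 8.80 with ethanol and 8.69 with PBS in hippocampus, and 9.43 with ethanol and 9.67 with PBS in forebrain. Its partner chain Col1a2 read 8.72 with ethanol and 8.53 with PBS in hippocampus, and 9.49 with ethanol and 9.60 with PBS in forebrain. For both chains the hippocampus arrays lay below both forebrain arrays, without overlap.

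Col1a2 was 1.70-fold lower in hippocampus than in forebrain after ethanol and 2.10-fold lower after PBS, and Col1a1 was 1.54-fold and 1.98-fold lower. In limma's fit over all 11013 genes, with tissue and treatment as additive terms, Col1a2 differed between the tissues by -0.92 (SE 0.0909, adjusted p = 0.01751). The difference of Col1a1 was -0.80 (SE 0.0966, adjusted p = 0.02088). With 4 arrays and additive terms only 1 degree of freedom remains, and the difference of the ethanol effect between tissues stands in for error. limma's eBayes step draws the variance of each gene toward a trend over all genes. The SEs and p-values therefore rest in part on variance borrowed from other genes. A p-value reflects how these 4 arrays scatter over the genes and nothing beyond these arrays. Of the 27 collagens 2 were lower and 0 higher at an adjusted p under 0.05, where 1.02% of all genes were lower and 0.109% higher. At an unadjusted p under 0.05 the counts were 9 lower and 1 higher, against 11.9% and 3.27% of all genes. Without a trend in the variance estimate Col1a1 lost its call (adjusted p = 0.0544), and over all alternatives its adjusted p lay between 0.002275 and 0.0544, and that of Col1a2 between 0.001072 and 0.04026.

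**Figure D1:**
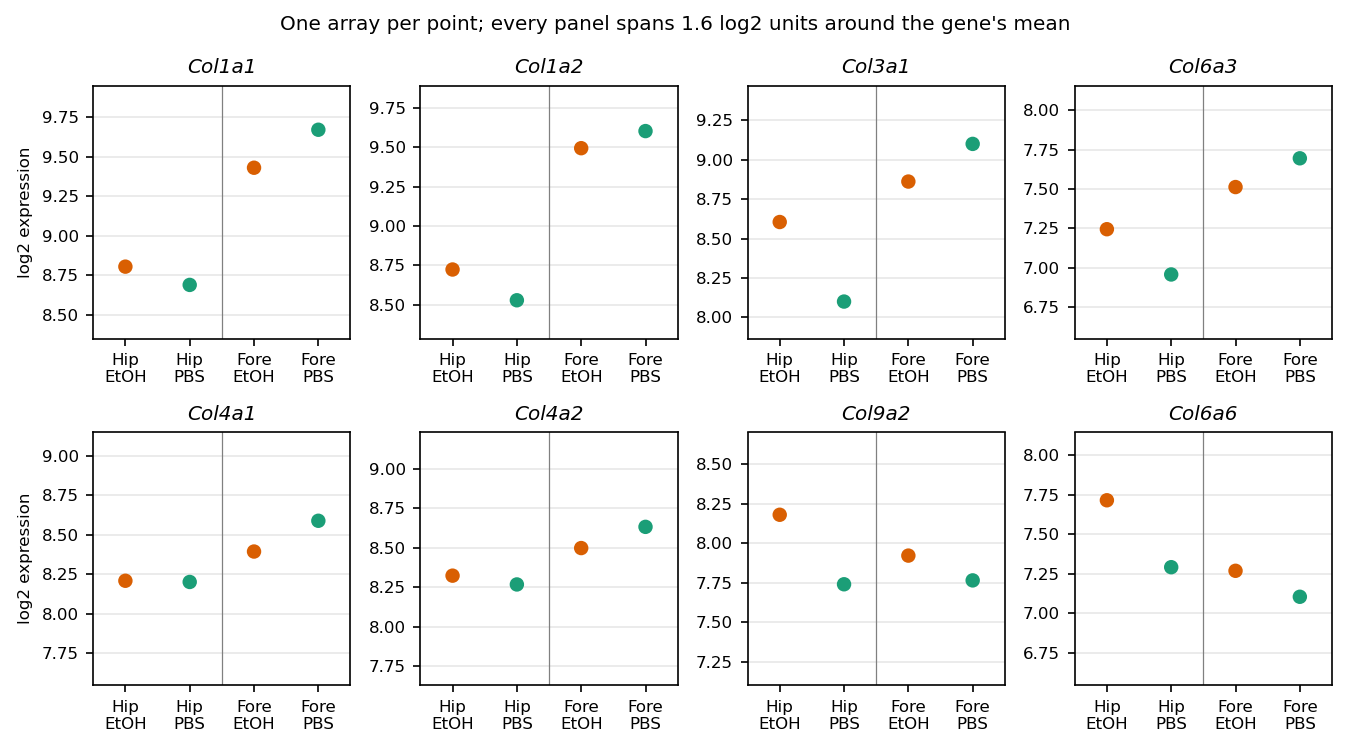
Log2 expression value of 8 collagens, 1 point per array, with hippocampus left of forebrain and ethanol left of PBS. All panels span the same height on the log2 axis. Col1a1 and Col1a2 show a gap between both hippocampus points and both forebrain points, while Col3a1 in hippocampus after ethanol (8.60) lies close to its forebrain value after ethanol (8.86). Col9a2 and Col6a6 stand highest in hippocampus after ethanol.

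Col3a1, the chain of type III collagen, which mixes with type I in soft tissue and is a known ligand of the receptor Adgrg1 at the mouse pial surface, read 8.60 with ethanol and 8.10 with PBS in hippocampus, and 8.86 with ethanol and 9.10 with PBS in forebrain. The hippocampus array after PBS stood lowest, and the hippocampus array after ethanol lay close below forebrain. Col3a1 was thus 1.19-fold lower in hippocampus after ethanol and 1.999-fold lower after PBS. Col6a3, the largest chain of the beaded type VI microfilaments, had the same order: 7.25 with ethanol and 6.96 with PBS in hippocampus, and 7.51 with ethanol and 7.69 with PBS in forebrain. It was 1.20-fold lower in hippocampus after ethanol and 1.67-fold lower after PBS. Over both treatments the tissue difference of Col3a1 was -0.63 (SE 0.155, limma adjusted p = 0.1219) and that of Col6a3 was -0.50 (SE 0.119, limma adjusted p = 0.1146). Neither passed the test here. After quantile normalization of the arrays both did, with limma adjusted p = 0.0492 for Col3a1 and 0.0471 for Col6a3, and Col3a1 also passed, at 0.04845, when only genes above the 75th percentile were kept. Over all alternatives the adjusted p of Col3a1 lay between 0.04845 and 0.1939, and that of Col6a3 between 0.0471 and 0.1877.

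Counted at 1.5-fold, 2 of the 27 collagens were lower in hippocampus than in forebrain after ethanol (Col1a1 and Col1a2), against 0.536% of all kept genes, and 4 were lower after PBS (these plus Col3a1 and Col6a3), against 1.19%. No collagen was 1.5-fold higher in hippocampus in either treatment, where 0.154% of kept genes were after ethanol and 0.0908% after PBS. After median centring or quantile normalization of the arrays the count after ethanol was 1, Col1a2, since Col1a1 was then 1.45-fold and 1.48-fold lower. These counts compare single arrays and carry no test. Both hippocampus arrays lay below both forebrain arrays for 13 of 27 collagens, a pattern that 28.9% of all kept genes had. With centring it was 9 of 27 and 18%, and with quantile normalization 11 of 27 and 27.3%.

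The sequences just upstream of the start of Col1a2, Col3a1 and Col6a3, which were past 1.5-fold between the tissues after PBS, are shown because these are the members with the widest tissue differences after PBS among those the promoter table lists. They come from RefSeq, assembly GRCm38.p6, are written 5′ to 3′ on the strand of the gene and end at the base before its annotated start. The window of Col1a2 is chr6:4505368-4505617 on the plus strand, that of Col3a1 is chr1:45311288-45311537 on the plus strand, and that of Col6a3 is chr1:90844002-90844221 on the minus strand. Capitals mark a GC box, spelled GGGCGG when read on the strand shown and CCGCCC when read on the other. They also mark a CCAAT box, for which the letters CCAAT and their reverse complement ATTGG were searched. The last motif marked is a TATA box, for which the letters TATAAA and the reverse complement TTTATA were searched. No motif found overlaps another in these windows.
Col1a2: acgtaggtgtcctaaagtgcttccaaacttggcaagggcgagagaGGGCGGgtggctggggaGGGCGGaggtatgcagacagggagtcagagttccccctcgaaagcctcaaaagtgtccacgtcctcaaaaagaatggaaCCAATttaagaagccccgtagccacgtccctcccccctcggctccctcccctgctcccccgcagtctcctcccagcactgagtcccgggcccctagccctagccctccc
Col3a1: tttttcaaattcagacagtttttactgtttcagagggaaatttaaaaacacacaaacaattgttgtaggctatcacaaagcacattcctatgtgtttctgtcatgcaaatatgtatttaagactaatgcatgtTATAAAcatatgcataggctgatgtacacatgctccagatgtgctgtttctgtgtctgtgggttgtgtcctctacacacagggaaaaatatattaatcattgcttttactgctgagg
Col6a3: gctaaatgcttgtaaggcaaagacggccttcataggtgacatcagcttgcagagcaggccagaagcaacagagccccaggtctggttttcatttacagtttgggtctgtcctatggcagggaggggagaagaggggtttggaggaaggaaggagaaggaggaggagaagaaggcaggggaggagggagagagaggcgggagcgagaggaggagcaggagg

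The Col1a2 window held GC boxes that begin 205 and 188 bases before its end and a CCAAT box at 109 bases. The Col3a1 window held 1 TATA box, at 117 bases before its end, and the Col6a3 window held none of the motifs. The RefSeq table holds 32851 promoter windows, which run from 250 bases before to 50 bases after a start. For the shares given here only the 250 bases before each start were searched. Of these windows 32.7% held a GC box, 33.8% a CCAAT box and 12.4% a TATA box. By gene, 21 of the 35 collagen genes with a window (60%) held a GC box, against 35.4% of all genes in the table. For the CCAAT box it was 13 of 35 (37.1%), against 37.5%, and for the TATA box 5 of 35 (14.3%), against 14.3%. A match describes letters in the window and is not evidence that a factor binds there.

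None of the other fibrillar collagens was 1.5-fold apart between the tissues or passed the test. Col5a1 and Col5a2 encode type V collagen, which starts type I fibrils. Col5a1 read 7.49 with ethanol and 7.26 with PBS in hippocampus, and 7.39 with ethanol and 7.56 with PBS in forebrain. Col5a2 read 7.23 with ethanol and 7.11 with PBS in hippocampus, and 7.30 with ethanol and 7.41 with PBS in forebrain. For Col5a1 the tissues overlapped, since hippocampus was above forebrain after ethanol and below it after PBS, while Col5a2 was lower in hippocampus in both treatments, with a difference of -0.07 after ethanol that became 0.016 with centring and of -0.29 after PBS.

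Col2a1, the main fibrillar collagen of cartilage, read 7.62 with ethanol and 7.53 with PBS in hippocampus, and 7.57 with ethanol and 7.60 with PBS in forebrain. Its fibril partner Col11a1 read 7.90 with ethanol and 7.83 with PBS in hippocampus, and 7.92 with ethanol and 7.94 with PBS in forebrain. All 4 arrays were close together for both genes. Col11a2, the other type XI chain, read 7.76 with ethanol and 7.42 with PBS in hippocampus, and 7.48 with ethanol and 7.41 with PBS in forebrain. Col27a1, a fibrillar collagen of developing cartilage, read 7.78 with ethanol and 7.39 with PBS in hippocampus, and 7.46 with ethanol and 7.40 with PBS in forebrain. In both genes a single array, hippocampus after ethanol, stood above the other 3, and hippocampus minus forebrain was 0.28 for Col11a2 and 0.31 for Col27a1 after ethanol, against 0.01 and -0.01 after PBS. The 8 measured markers of cartilage and bone had a summed linear level of 845.4 with ethanol and 840.3 with PBS in hippocampus. In forebrain the sum was 788.7 with ethanol and 781.4 with PBS. Sox9 weighs most in that sum, with 8.83 with ethanol and 8.88 with PBS in hippocampus, and 8.73 with ethanol and 8.67 with PBS in forebrain. The sum therefore says little about the rest of the list. Sox9 alone passed the filter. Acan, the proteoglycan that defines cartilage, was among those below the filter, at 5.60 with ethanol and 5.49 with PBS in hippocampus and 5.50 with ethanol and 5.56 with PBS in forebrain.

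Among basement membrane collagens, the paired chains of the ubiquitous type IV network were lower in hippocampus in both treatments but did not pass the test. Col4a1 read 8.21 with ethanol and 8.20 with PBS in hippocampus, and 8.39 with ethanol and 8.59 with PBS in forebrain. Col4a2, which is transcribed from the same start region in the opposite direction, read 8.32 with ethanol and 8.27 with PBS in hippocampus, and 8.50 with ethanol and 8.63 with PBS in forebrain. The chains moved side by side, with tissue differences of -0.29 (SE 0.087, limma adjusted p = 0.1847) for Col4a1 and -0.27 (SE 0.0855, limma adjusted p = 0.2015) for Col4a2. Col4a5, a chain of the network of specialised basement membranes such as that of the kidney, read 7.33 with ethanol and 7.11 with PBS in hippocampus, and 7.26 with ethanol and 7.22 with PBS in forebrain.

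Col18a1, whose tail is the source of endostatin, read 7.14 with ethanol and 7.11 with PBS in hippocampus, and 7.35 with ethanol and 7.33 with PBS in forebrain. Its relative Col15a1 read 7.16 with ethanol and 7.23 with PBS in hippocampus, and 7.34 with ethanol and 7.25 with PBS in forebrain. Col18a1 differed between the tissues by about the same amount in each treatment, -0.21 after ethanol and -0.22 after PBS, and did not pass (limma adjusted p = 0.2889). Of the 5 kept basement membrane collagens 4 were lower in hippocampus after ethanol, where 69.6% of all kept genes were, and 5 were lower after PBS, where 47.5% were.

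The type VI chains, which assemble together into one microfilament, did not move alike. Col6a1 read 7.75 with ethanol and 7.36 with PBS in hippocampus, and 7.78 with ethanol and 7.82 with PBS in forebrain. Col6a2 read 7.35 with ethanol and 7.37 with PBS in hippocampus, and 7.61 with ethanol and 7.56 with PBS in forebrain. Hippocampus minus forebrain was therefore -0.02 after ethanol (0.068 with centring) and -0.46 after PBS for Col6a1, whereas it was -0.26 and -0.18 for Col6a2. Col6a6, a chain that can stand in for Col6a3, had the opposite order, with 7.72 with ethanol and 7.29 with PBS in hippocampus, and 7.27 with ethanol and 7.10 with PBS in forebrain. A second probe set of Col6a6 read 5.89 with ethanol and 5.58 with PBS in hippocampus, and 5.72 with ethanol and 5.67 with PBS in forebrain, so the probe sets differed on the direction of the tissue difference after PBS.

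Col12a1, a collagen of fibril surfaces, read 7.37 with ethanol and 7.38 with PBS in hippocampus, and 7.53 with ethanol and 7.74 with PBS in forebrain, and it was lower in hippocampus in both treatments without passing (limma adjusted p = 0.2348). Its relative Col16a1 read 7.61 with ethanol and 7.30 with PBS in hippocampus, and 7.39 with ethanol and 7.43 with PBS in forebrain. Col22a1, found at tissue junctions, read 7.42 with ethanol and 7.34 with PBS in hippocampus, and 7.26 with ethanol and 7.39 with PBS in forebrain. For Col16a1 and Col22a1 the tissue order turned with treatment. The type IX chains decorate cartilage-type fibrils. Col9a2 read 8.18 with ethanol and 7.74 with PBS in hippocampus, and 7.92 with ethanol and 7.77 with PBS in forebrain. Col9a3 read 8.41 with ethanol and 8.37 with PBS in hippocampus, and 8.28 with ethanol and 8.34 with PBS in forebrain.

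A further pair of genes encodes collagens that span the cell membrane. Col23a1 read 7.47 with ethanol and 7.03 with PBS in hippocampus, and 7.35 with ethanol and 7.37 with PBS in forebrain. Col25a1, a collagen of neurons, read 7.49 with ethanol and 7.29 with PBS in hippocampus, and 7.31 with ethanol and 7.31 with PBS in forebrain. Both were highest in hippocampus after ethanol and lowest in hippocampus after PBS. Col7a1, the anchoring fibril collagen of skin, read 7.64 with ethanol and 7.31 with PBS in hippocampus, and 7.39 with ethanol and 7.27 with PBS in forebrain. Col26a1 read 8.26 with ethanol and 7.91 with PBS in hippocampus, and 8.22 with ethanol and 8.18 with PBS in forebrain. It had the same pattern as the membrane collagens.

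**Figure D2:**
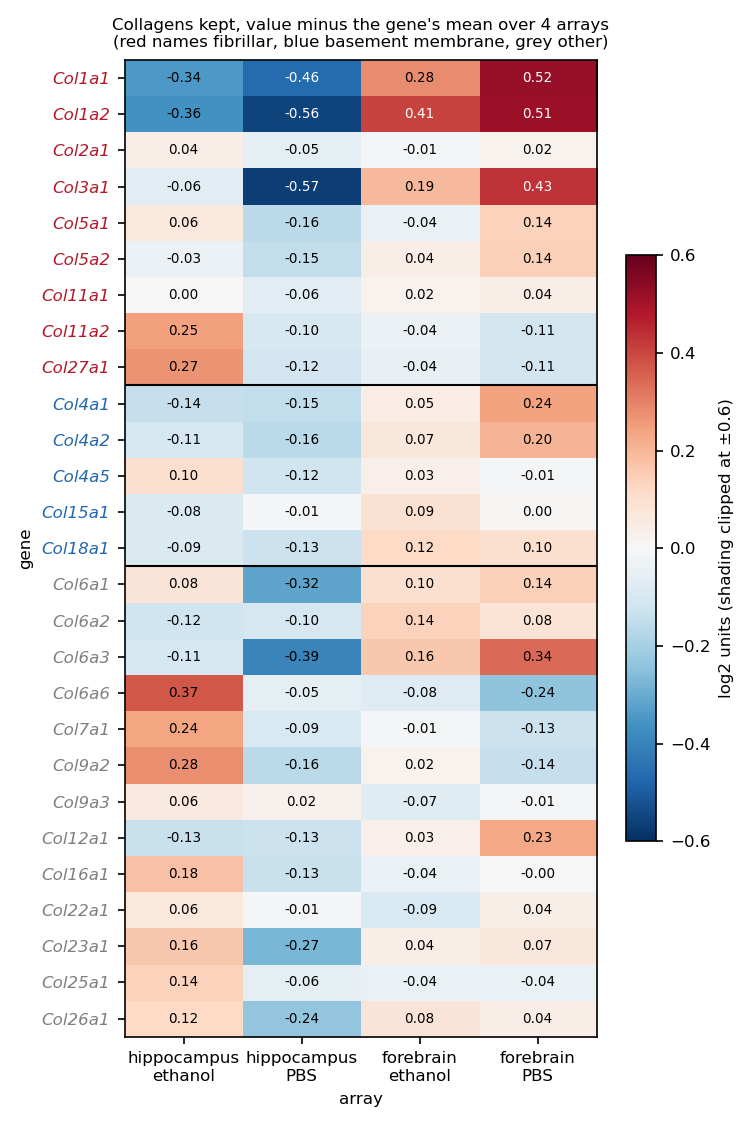
Heatmap of the 27 kept collagens, grouped by class, in which each cell is the log2 value of an array minus the mean of that gene over the 4 arrays. The columns run hippocampus ethanol, hippocampus PBS, forebrain ethanol and forebrain PBS. The hippocampus PBS column holds the lowest value for 19 of 27 genes.

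By class, the median difference of hippocampus from forebrain was -0.02 after ethanol and -0.29 after PBS for the 9 kept fibrillar collagens, and the value after ethanol was 0.071 with centring. It was -0.18 after ethanol and -0.22 after PBS for the 5 basement membrane collagens, and 0.13 after ethanol and -0.13 after PBS for the 13 others. Over all kept genes the medians were -0.06 after ethanol and 0.01 after PBS. After ethanol 14 of 27 collagens were higher in hippocampus and 13 lower, where 30.4% of all kept genes were higher and 69.6% lower. After PBS 4 of 27 were higher and 23 lower, where 52.4% were higher and 47.5% lower. Over all 44 collagens 31 were higher and 13 lower after ethanol, where 47.3% of all genes were higher and 52.6% lower, and 15 were higher and 29 lower after PBS, where 52.8% were higher and 47% lower. With centring 17 of 27 were higher and 10 lower after ethanol, where 57.6% of kept genes were higher and 42.4% lower, and 5 were higher and 22 lower after PBS, where 55.5% were higher and 44.5% lower. With quantile normalization 16 of 27 were higher and 11 lower after ethanol, where 43.1% of kept genes were higher and 56.8% lower, and 3 were higher and 24 lower after PBS, where 45.7% were higher and 54.1% lower. The hippocampus PBS array was the lowest of the 4 for 19 of 27 collagens, where 19.9% of kept genes had that order, and this held for 8 of 9 fibrillar, 4 of 5 basement membrane and 7 of 13 other collagens. With centring it was 21 of 27 and 28.9%, and with quantile normalization 22 of 27 and 28.7%.

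**Figure D3:**
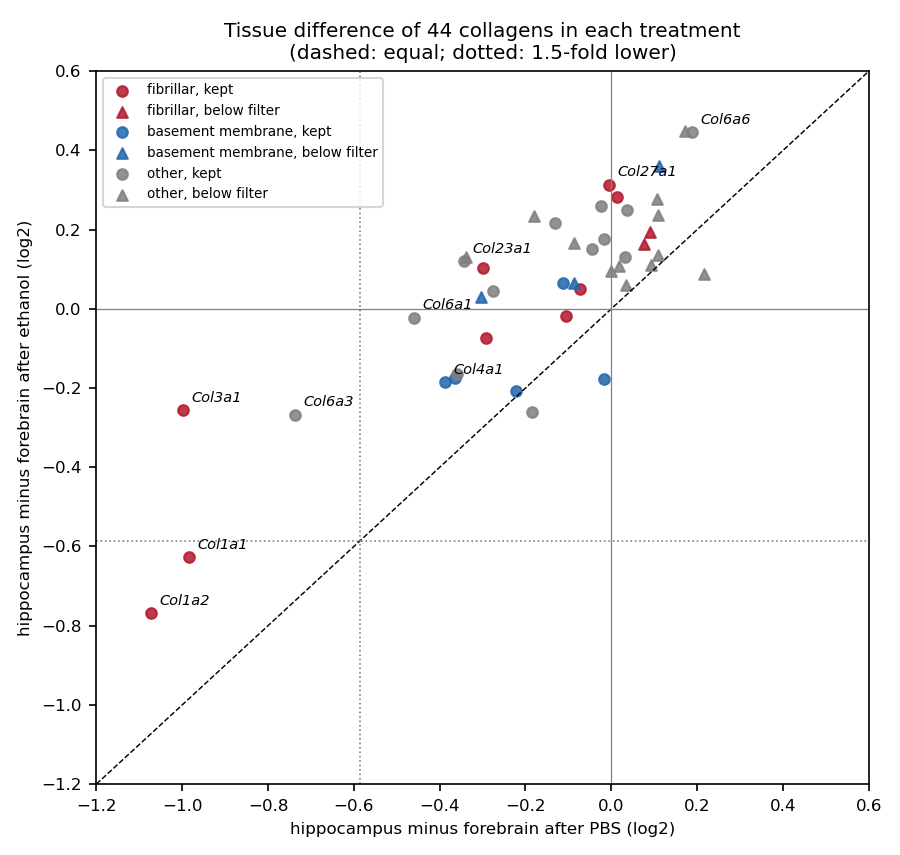
Hippocampus minus forebrain on the log2 scale after PBS (horizontal axis) and after ethanol (vertical axis) for the 44 collagens, 1 point per gene, with circles for kept genes and triangles for those below the filter. The dashed line marks equal differences and the dotted lines a 1.5-fold lower value in hippocampus. Col1a1 and Col1a2 are past it in both treatments, and Col3a1 and Col6a3 after PBS alone.

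The next question is whether collagen values differed after ethanol. In hippocampus 24 of the 27 kept collagens were higher after ethanol than after PBS and 3 were lower, where 30.7% of all kept genes were higher and 69.3% lower. Their median difference was 0.20, against -0.08 over all kept genes. With centring all 27 were higher, where 56.4% of kept genes were higher and 43.6% lower, and with quantile normalization 26 were higher and 1 lower, where 45.1% were higher and 54.8% lower. Over all 44 collagens 40 were higher and 4 lower, where 47% of all genes were higher and 52.9% lower. In forebrain 11 of 27 were higher and 16 lower, where 46.1% of kept genes were higher and 53.8% lower, and the median was -0.03, against -0.01 over all kept genes. With centring the forebrain counts were again 11 and 16, where 55.6% of kept genes were higher and 44.4% lower, and with quantile normalization they were 11 and 16, where 45.5% were higher and 54.3% lower. Of all 44 in forebrain 23 were higher and 21 lower, where 48.5% of all genes were higher and 51.4% lower. These are single-array differences with no test, and the hippocampus PBS array enters both the ethanol difference in hippocampus and the tissue difference after PBS.

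No collagen was 1.5-fold higher or lower after ethanol in either tissue, where 0.49% of kept genes were higher and 0.427% lower in hippocampus, and 0.0454% higher and 0.0272% lower in forebrain. In hippocampus this rests on the scaling, since Col3a1 was 1.52-fold higher with centring and 1.501-fold higher with quantile normalization. Col3a1 came closest, at 1.42-fold higher after ethanol in hippocampus, a difference of 0.50, against -0.24 in forebrain. Taking a value at least 25% higher, 9 collagens were higher in hippocampus after ethanol: Col3a1, Col11a2, Col27a1, Col6a1, Col6a6, Col7a1, Col9a2, Col23a1 and Col26a1. That threshold was passed by 3.17% of all kept genes.

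By class, the median ethanol difference in hippocampus was 0.19 for fibrillar, 0.04 for basement membrane and 0.31 for other collagens. In forebrain the medians were -0.10, 0.02 and -0.03. All 9 kept fibrillar collagens were higher after ethanol in hippocampus, where 30.7% of all kept genes were. In forebrain 7 of 9 were lower after ethanol, where 53.8% of all kept genes were. With no filter all 11 were higher in hippocampus, where 47% of all genes were, and 7 of 11 were lower in forebrain, where 51.4% were. The ethanol difference was larger in hippocampus than in forebrain for 25 of 27 collagens, where 32.5% of all kept genes were, with a median gap of 0.22, against -0.06 over all kept genes. Col3a1 had the widest gap, 0.74. With 1 array per group that gap cannot be tested.

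The direction of the ethanol difference in hippocampus varied with level over all genes, and the collagens were set beside genes of their own level. Among 3438 genes with a mean of 7 to 8, 42.8% were higher after ethanol with a median difference of -0.03, while 20 of 23 collagens in that range were higher with a median of 0.23. Among 3780 genes with a mean of 8 to 9, 25.2% were higher with a median of -0.10, while all 5 collagens were higher with a median of 0.06. In the range of 6 to 7, where 69.9% of 3634 genes were higher with a median of 0.09, all 13 collagens were higher with a median of 0.22. The top range, 9 and over, held Col1a1 and Col1a2 alone. The part of array processing at low level in these differences was not tested.

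**Figure D4:**
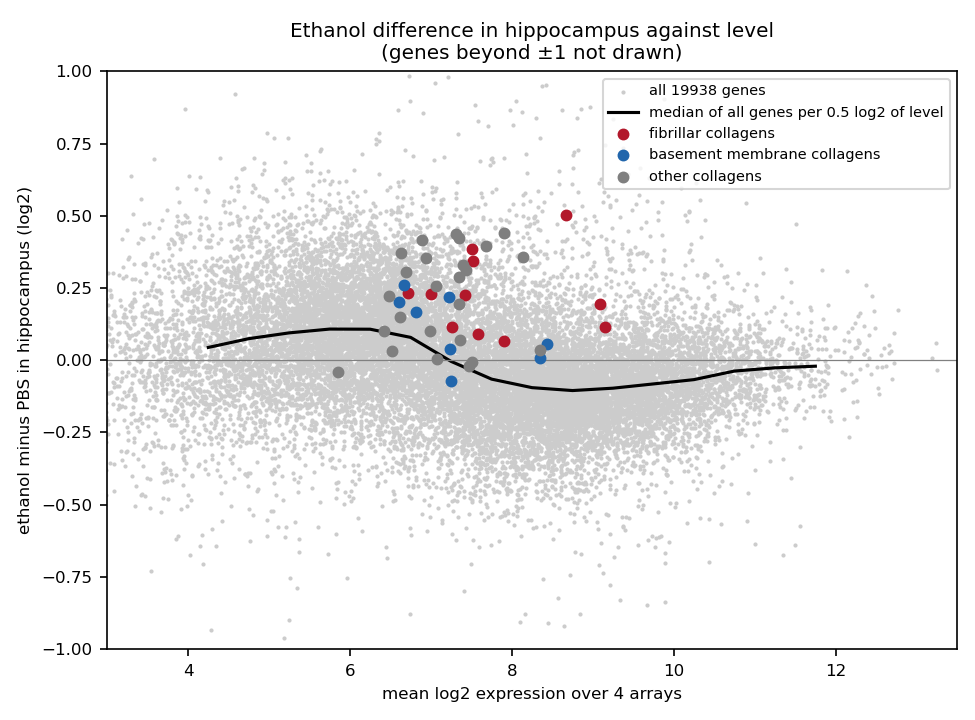
Ethanol minus PBS in hippocampus on the log2 scale against the mean log2 value over the 4 arrays, for 19938 genes in grey and the 44 collagens in colour by class, with a line for the median of all genes in steps of level. Genes beyond 1 in either direction are not drawn. The median is above 0 at low level (0.09 from 6 to 7) and below 0 at high level (-0.10 from 8 to 9), and most collagens from 7 to 9 lie above it.

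Over both tissues limma called 0 of 27 collagens for ethanol, and 0 of 11013 genes, with an adjusted p under 0.05. At an unadjusted p under 0.05, 3 collagens were higher after ethanol and 0 lower, where 3.41% of all genes were higher and 6.36% lower. These were Col9a2 with a difference of 0.30, Col6a6 with 0.29 and Col7a1 with 0.22, and limma's adjusted p was 0.5104 for each. Both ethanol arrays lay above both PBS arrays for 7 of 27 collagens (Col11a2, Col27a1, Col4a5, Col7a1, Col9a2, Col25a1 and Col26a1), an order that 8.66% of all kept genes had. With centring it was 8 of 27 and 21.3%, and with quantile normalization 8 of 27 and 13.7%. The hippocampus ethanol array was the highest of the 4 for 13 of 27, where 12.9% of kept genes had that order, and 9 of these 13 were in the class of other collagens. With centring it was 16 of 27 and 36.4%, and with quantile normalization 14 of 27 and 22.4%.

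The 17 collagens below the filter had values between 5.74 and 7.21. No detection calls were used here, so whether a value stands above background is unknown, also for kept collagens with values in that range, such as Col6a3 (6.96) and Col23a1 (7.03) in hippocampus after PBS. They are Col5a3 and Col24a1 (fibrillar), Col4a3, Col4a4 and Col4a6 (basement membrane) and Col6a4, Col6a5, Col8a1, Col8a2, Col9a1, Col10a1, Col13a1, Col14a1, Col17a1, Col19a1, Col20a1 and Col28a1. After ethanol 16 of the 17 were higher than after PBS in hippocampus, with a median of 0.22, where 67% of all 8925 genes below the filter were higher, with a median of 0.08. After ethanol all 17 were higher in hippocampus than in forebrain, with a median of 0.14, where 68.1% of those genes were higher, with a median of 0.09. After PBS 11 of the 17 were higher in hippocampus, where 53.3% of those genes were. Col10a1, the collagen of hypertrophic cartilage and the exception in hippocampus, read 5.91 with ethanol and 5.95 with PBS in hippocampus, and 5.82 with ethanol and 5.74 with PBS in forebrain.

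The 44 genes lie on 15 chromosomes, and by RefSeq 9 pairs of them are neighbours, 8 with no other protein-coding gene between. Col4a1 and Col4a2 differed between the tissues by -0.19 and -0.17 after ethanol and by -0.39 and -0.36 after PBS. Col3a1 and its neighbour Col5a2 differed by -0.26 and -0.07 after ethanol and by -0.999 and -0.29 after PBS. Col6a6 and Col6a5 were both higher in hippocampus, by 0.45 and 0.45 after ethanol and by 0.19 and 0.17 after PBS, and Col6a5 was below the filter. That direction rests on the brighter probe set. A second probe set of Col6a5 read 6.29 with ethanol and 6.18 with PBS in hippocampus, and 6.34 with ethanol and 6.24 with PBS in forebrain, lower in hippocampus in both treatments, and the second probe set of Col6a6 was lower in hippocampus after PBS. Col6a5 and Col6a6 are closely related in sequence, and cross-hybridisation between their probes was not tested.

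Genes that make, process and bind collagen were read from lists chosen with earlier results of these data known, and genes of those lists without a probe set of their own were not analysed here. In every list 0 genes passed limma's test for ethanol. The list for chain modification and folding had 16 kept genes, not all of them enzymes or chaperones. Of these, 14 were lower in hippocampus than in forebrain over both treatments, against 61.2% of all kept genes, and 0 passed (median -0.13). The collagen chaperone Serpinh1 read 7.80 with ethanol and 7.89 with PBS in hippocampus, and 8.01 with ethanol and 8.09 with PBS in forebrain, a difference of -0.21 (SE 0.0813, limma adjusted p = 0.2901). Fkbp14, a prolyl isomerase of the endoplasmic reticulum, differed by -0.42, Crtap, part of the prolyl 3-hydroxylation complex, by -0.31, and the lysyl hydroxylase Plod1 and its partner P3h4 by -0.24 each. P4hb, the disulfide isomerase that also serves as a prolyl hydroxylase subunit, read 10.31 with ethanol and 10.32 with PBS in hippocampus, and 10.37 with ethanol and 10.34 with PBS in forebrain.

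Of 3 kept genes for trimming the precursor ends none passed for tissue. Adamts3, a protease that removes the amino-terminal propeptide, read 9.45 with ethanol and 10.28 with PBS in hippocampus, and 9.94 with ethanol and 9.90 with PBS in forebrain. The hippocampus ethanol array stood lowest and the hippocampus PBS array highest, so that the ethanol difference was -0.84 in hippocampus and 0.04 in forebrain (limma over both tissues -0.40, SE 0.171, adjusted p = 0.5132). Pcolce, an enhancer of carboxy-terminal trimming, read 7.31 with ethanol and 7.20 with PBS in hippocampus, and 7.46 with ethanol and 7.51 with PBS in forebrain. Tll1 and Adamts14, further proteases of this step, were below the filter. Of the cross-linking enzymes, Lox was below the filter, with 6.16 with ethanol and 5.77 with PBS in hippocampus and 6.62 with ethanol and 6.73 with PBS in forebrain. Loxl1 ran the other way, with 7.67 with ethanol and 7.76 with PBS in hippocampus, and 7.30 with ethanol and 7.47 with PBS in forebrain (difference 0.33, SE 0.0841, limma adjusted p = 0.1297). Loxl3 differed by -0.02 and Loxl4 was below the filter.

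Of 6 kept collagen receptors 1 passed for tissue, as lower in hippocampus, against 1.02% of all kept genes. Ddr2, a receptor tyrosine kinase of fibrillar collagen, fell in hippocampus relative to forebrain, with 7.48 with ethanol and 7.59 with PBS in hippocampus and 7.91 with ethanol and 8.12 with PBS in forebrain (difference -0.48, SE 0.0835, limma adjusted p = 0.04965). Its epithelial relative Ddr1 differed by -0.07 and the integrin subunit Itga1 by -0.27, and neither passed. Adgrg1, the receptor for type III collagen on neural progenitors and migrating neurons, read 9.70 with ethanol and 9.70 with PBS in hippocampus, and 9.73 with ethanol and 9.72 with PBS in forebrain. Lair1, an inhibitory receptor of immune cells, was below the filter.

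All 9 kept proteins that bind or organise fibrils were lower in hippocampus over both treatments, against 61.2% of all kept genes, with a median of -0.52. Of these 2 passed, against 1.02% of all kept genes that passed as lower. Fmod, a small proteoglycan of fibril surfaces, read 6.96 with ethanol and 6.40 with PBS in hippocampus, and 7.58 with ethanol and 7.68 with PBS in forebrain (difference -0.95, SE 0.147, limma adjusted p = 0.04165). Fn1, fibronectin, on which fibrils assemble, passed too and was named after its values were seen, with 9.42 with ethanol and 9.53 with PBS in hippocampus and 9.9985 with ethanol and 10.0039 with PBS in forebrain (difference -0.52, SE 0.0675, limma adjusted p = 0.02797). Both hippocampus arrays were below both forebrain arrays in each. Dcn, decorin, read 8.71 with ethanol and 7.99 with PBS in hippocampus, and 9.22 with ethanol and 9.33 with PBS in forebrain, and did not pass (difference -0.93, SE 0.17, limma adjusted p = 0.0595). Postn, periostin, differed by -0.68 (limma adjusted p = 0.06731), and Lum, lumican, was below the filter.

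Among 12 kept basement membrane partners of type IV collagen 11 were lower in hippocampus over both treatments, against 61.2% of all kept genes, and 0 passed (median -0.18). The linker proteins Nid1 and Nid2 differed by -0.50 and -0.43, and the laminin chains Lama1 and Lama2 by -0.39 and -0.38. All 6 kept genes of collagen breakdown were lower, against 61.2% of all kept genes, and 0 passed (median -0.21). They included the gelatinase Mmp2 at -0.38 and the protease inhibitors Timp3 and Timp2 at -0.25 and -0.24, while the protease gene Ctsk was below the filter.

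**Figure D5:**
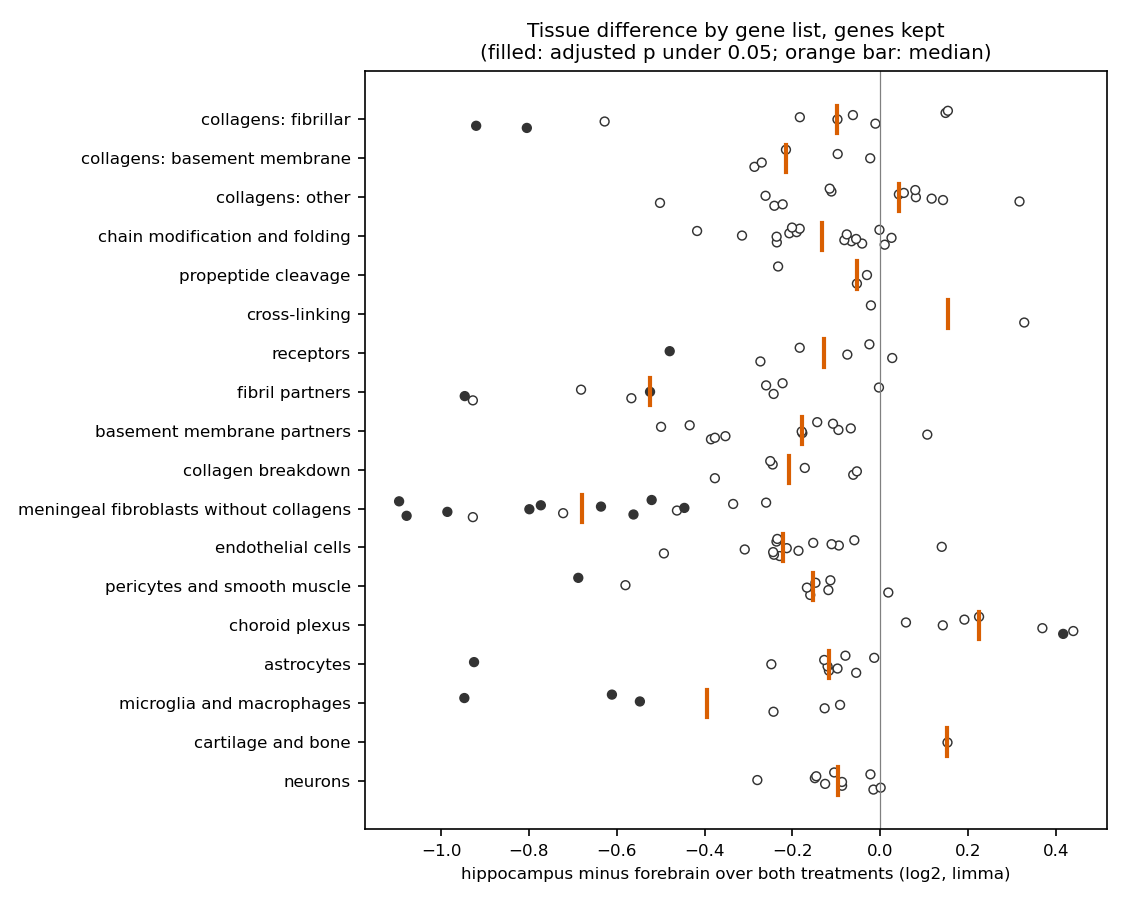
Hippocampus minus forebrain on the log2 scale from limma's fit over both treatments, 1 point per kept gene, for the collagen classes, the lists of collagen-related genes and the marker lists. Filled points have an adjusted p under 0.05 and the orange bar is the median of the list. The medians are -0.10 for fibrillar collagens, -0.52 for fibril partners and -0.68 for meningeal fibroblast markers. The lists of fibril partners and meningeal fibroblast markers share some genes.

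Markers of meningeal fibroblasts, cells that make fibrillar collagen, were also lower in hippocampus. Most markers of vascular cells were lower there too, but few of them passed the test. The 18 measured markers of meningeal fibroblasts, a list without collagens, summed on the linear scale to 4664 with ethanol and 4102 with PBS in hippocampus, and to 6907 with ethanol and 7061 with PBS in forebrain. Dcn, Lum and Fbln1 are in this list and in that of proteins that bind or organise fibrils, so the lists are not independent. All 18 were lower in hippocampus in each treatment, where 52.6% of all genes were lower after ethanol and 47% after PBS. Of the 14 kept, 9 passed limma's test as lower, among them Gjb2, Slc6a13 and Aldh1a2, against 1.02% of all kept genes. Among these 9 the highest limma adjusted p was 0.04426, near the threshold. Whether they passed in the alternative settings is not given here. The 14 endothelial markers summed to 4709 with ethanol and 5141 with PBS in hippocampus. In forebrain they summed to 5375 with ethanol and 5681 with PBS. Over both treatments 13 of the 14 were lower in hippocampus, against 61.2% of all kept genes, with a median of -0.22, and 0 passed. The 12 markers of pericytes and smooth muscle summed to 2740 with ethanol and 2483 with PBS in hippocampus. In forebrain they summed to 3093 with ethanol and 3254 with PBS. Over both treatments 7 of the 8 kept were lower in hippocampus, against the same 61.2%, with a median of -0.15. Of the 8 kept, 1 passed, as lower, against 1.02% of all kept genes. Meningeal and pericyte sums, like the values of most fibrillar collagens, were lowest in hippocampus after PBS. That order was not particular to them, since the astrocyte, neuron, and microglia and macrophage sums given below had it too. The endothelial sum was lowest in hippocampus after ethanol. Without detection calls these values do not show whether a cell type was present. In bulk tissue fewer cells of a type and less RNA per cell cannot be told apart, and the part of meningeal or vascular tissue in the collagen differences was not tested.

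The remaining lists were read for context, beside the 1.02% of all kept genes that passed as lower and the 0.109% that passed as higher. The 12 markers of microglia and macrophages summed to 1490 with ethanol and 1439 with PBS in hippocampus, and to 1852 with ethanol and 1864 with PBS in forebrain. Of 6 kept, 3 passed as lower, Mrc1, Lyve1 and C1qc, and the rest did not pass. The list mixes microglia with other macrophages, so its sum and count do not speak for microglia alone. The 10 measured choroid plexus markers summed to 6629 with ethanol and 7648 with PBS in hippocampus, and to 5665 with ethanol and 5282 with PBS in forebrain, and 1 of 7 kept, Ttr, passed as higher. The 10 astrocyte markers summed to 6943 with ethanol and 5736 with PBS in hippocampus, and to 7491 with ethanol and 7114 with PBS in forebrain, and 1 of 9 kept passed as lower. The 10 neuron markers summed to 28026 with ethanol and 27047 with PBS in hippocampus, and to 29364 with ethanol and 28529 with PBS in forebrain, and 0 passed. The choroid plexus sum was therefore higher in hippocampus, the opposite of the meningeal sum. Ttr, which read 12.37 with ethanol and 12.57 with PBS in hippocampus, weighs most in that sum. Of the 10 measured markers 8 were higher in hippocampus after ethanol, where 47.3% of all genes were, and 10 after PBS, where 52.8% were. Aqp1 and Otx2 were lower in hippocampus after ethanol.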

How the data were processed

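Total RNA of 4 tissue samples was hybridised to Affymetrix arrays, 1 per group, after Trizol extraction and biotin labelling of 6 ug, per the labels' protocols. Expression was taken as the log2 values deposited by the authors. MAS5 is the tool in the submitters' processing notes; its settings are not stated there. The range of the values, 1.58 to 13.96, identified the scale as log2, and the linear signals that the plan had allowed for did not occur. With 1 array per group, precision within a tissue is unknown.

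Of 35557 probe sets 21789 had 1 gene symbol. All 46 collagen probe sets matched RefSeq (GRCm38.p6) by gene identifier, and 0 symbols changed. The probe set with the highest mean stood for each gene, and 11013 of 19938 genes with a mean of at least 7.11 were kept. Pairs of arrays were compared by log2 difference, counted at 1.5-fold. On all kept genes an additive model of treatment and tissue was fitted by limma (version 3.58.1, R 4.3.3), with eBayes (trended variance) and an adjusted p (Benjamini-Hochberg) under 0.05 as the threshold. Marker sums are sums of linear values. Tables and figures were made in Python 3.11.15 (pandas 2.3.3, numpy 2.4.6; plots in matplotlib 3.10.9).

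The members, the gene lists and the tests were chosen with earlier results of these data known. Values in all arrays were to be given for each kept collagen. From each list of collagen-related genes up to 4 with the largest mean difference were named, plus Serpinh1, P4hb, Ddr1, Adgrg1 and Adamts3. From each marker list at most 3 were named, apart from genes shared with the list of fibril partners. The hippocampal field list was added after the files had been read. Alternatives were median centring, quantile normalization, no filter, a 75th percentile filter, the mean of all probe sets of a gene, eBayes without a trend, other fold thresholds and type IV chains alone for the basement membrane class.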

Additional observations from a re-analysis of the deposited data

Results flagged for a closer look

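Several results are of interest because the same comparison gave opposite directions in 2 settings, by at least 0.1 on the log2 scale each way, and in none of them could the difference be tested with 1 array per group. Ethanol minus PBS was 0.50 in hippocampus and -0.24 in forebrain for Col3a1, 0.29 and -0.18 for Col6a3, and 0.23 and -0.18 for Col5a1. For the type I chains it was 0.12 in hippocampus and -0.24 in forebrain for Col1a1, and 0.19 and -0.11 for Col1a2. For Col5a2 it was 0.12 in hippocampus and -0.10 in forebrain, and the median of the kept fibrillar collagens was 0.19 in hippocampus and -0.10 in forebrain.

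Hippocampus minus forebrain was 0.10 after ethanol and -0.30 after PBS for Col5a1, 0.12 and -0.34 for Col23a1, and 0.22 and -0.13 for Col16a1. The median of the kept collagens outside the fibrillar and basement membrane classes was 0.13 after ethanol and -0.13 after PBS. All of these share the hippocampus PBS array, which was the lowest of the 4 for Col5a1, Col23a1 and Col16a1, and a technical difference of that array was not tested.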

How the results depend on the processing

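The tissue differences of Col1a1, Col1a2, Col3a1 and Col6a3 kept their sign under each alternative that kept the gene. No pairing beyond the additive tissue and treatment terms of the fit was possible, because each group has 1 array. Leaving out an array leaves 0 residual degrees of freedom. Values without a test were called unchanged when they moved by less than 0.0941, the SD of the forebrain ethanol difference over kept genes. Centring each array on its median raised the ethanol difference in hippocampus by 0.10 for all genes, with medians of 0.29 for fibrillar, 0.14 for basement membrane and 0.41 for other collagens, and it moved 27 of the 108 differences of single collagens. It gave 1 collagen (Col3a1) 1.5-fold higher after ethanol in hippocampus and left 1 (Col1a2) lower in hippocampus than in forebrain after ethanol, and quantile normalization gave 1 and 1, the same genes. With a 25% difference as the threshold 9 collagens were higher after ethanol in hippocampus, where 3.17% of all kept genes were. Between the tissues at 25%, 1 was higher in hippocampus after ethanol and 9 were lower in hippocampus after PBS. At 2-fold the counts were 0 lower in hippocampus after ethanol and 1 after PBS. For these tissue counts, and for the 1.5-fold counts after centring or quantile normalization, the share of all kept genes is not given here. Without that share they are not read as a result about collagens. Of the 108 differences of single collagens 8 changed sign, 7 with centring and 5 with quantile normalization, among values of at most 0.0733 in size. These were Col15a1, Col6a2 and Col12a1 for ethanol in hippocampus, Col5a2, Col11a1 and Col6a1 between the tissues after ethanol, and Col11a2 and Col27a1 between the tissues after PBS. Of the class medians 3 changed sign. The fibrillar median between the tissues after ethanol, -0.019, was 0.071 with centring, 0.035 with quantile normalization and 0.051 with no filter. For ethanol in forebrain the basement membrane median, 0.023, was -0.025 with no filter, and the median of other collagens, -0.029, was 0.036 with no filter. With no filter the medians of hippocampus minus forebrain were -0.072 for basement membrane collagens after ethanol, and -0.11 for fibrillar and -0.018 for other collagens after PBS. With the 75th percentile filter, which kept 3 fibrillar collagens and gave no value for the other classes, the fibrillar medians were -0.63 after ethanol and -0.999 after PBS between the tissues, and -0.24 for ethanol in forebrain. For type IV chains alone the medians were -0.36 between the tissues after PBS and -0.13 for ethanol in forebrain, where the whole class had 0.023. limma called 4 collagens for tissue after quantile normalization and 1 without a trend. Over all genes it called 124 for tissue, against 66 with centring, 416 with quantile normalization, 37 with no filter and 27 without a trend, and it called 0 for ethanol, against 2 with centring, 14 with quantile normalization and 7 with the 75th percentile filter. The causes of these shifts were not tested. Whether genes outside the collagens, such as Ddr2, Fmod and the meningeal markers, kept their calls in these settings is not given here.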
